A study of Homo sapiens with 16 samples.

Results

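MDA-MB-231 7TGP-POS cells were compared with MDA-MB-231 7TGP-NEG cells grown in standard serum, using RNA-seq counts for all protein-coding genes. The comparison used 4 of the 16 libraries of the series, chosen by their labels alone: 2 biological duplicates of 7TGP-POS and 2 of 7TGP-NEG. MDA-MB-231 is a human triple-negative breast cancer line of mesenchymal type. Both groups carried the same stably integrated 7TGP vector, in which TCF-binding sites in front of a minimal promoter drive eGFP, together with a puromycin resistance cassette. After puromycin selection, the brightest and the dimmest eGFP cells were sorted and expanded over repeated rounds, so each group is a sorted population and not a clone. Cells of both groups were harvested on day 6 of culture in medium with 10% FBS. No separate agent was given to either group, and no unsorted parental cells were among these 4 libraries. The question was how the transcriptomes of cells with high and low Wnt reporter activity differ within this line.

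In canonical Wnt signalling, a Wnt ligand bound to Frizzled and LRP receptors stops the destruction of β-catenin, which then enters the nucleus and acts with TCF and LEF factors on target genes. Several of these targets, such as AXIN2, NKD1, RNF43 and ZNRF3, act back on the pathway to limit it. MDA-MB-231 cells are also known for secreting inflammatory cytokines and matrix-degrading enzymes. In bulk RNA, a higher level may come from more cells that express a gene or from more RNA per cell, and these cannot be told apart here.

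The 4 libraries held between 31827130 and 36246783 counts, of which 97.2 to 97.8% fell on protein-coding genes. Duplicates were not copies of each other: their counts differed by more than sampling noise, with a chi-square per degree of freedom of 11.2 in 7TGP-NEG and 13.3 in 7TGP-POS. Line identity was checked with markers. CDKN2A, which is deleted in MDA-MB-231, had 0 counts in all 4 libraries, and VIM, CD44, ZEB1, AXL, CAV1 and FN1, the markers of mesenchymal lines, were all detected, with a summed level of 5294 and 5787 TPM in 7TGP-NEG and 3186 and 3356 TPM in 7TGP-POS, where VIM and FN1 were lower. PGR had at most 1 count in a library. ESR1 had 0 counts in both 7TGP-NEG libraries and 20 and 25 counts in 7TGP-POS. ERBB2 RNA was detected in both groups, with 2665 and 2375 counts in 7TGP-NEG and 2336 and 2699 in 7TGP-POS. Of the 7 blood cell markers, 2 were at 0 in all 4 libraries, CD3E and HBB had at most 1 count and CD68 at most 3. PTPRC was detected, with 272 and 213 counts in 7TGP-NEG and 309 and 334 in 7TGP-POS. CD14 was detected too, with 67 and 65 counts in 7TGP-NEG and 59 and 65 in 7TGP-POS. The summed level of that list was 7.06 and 7.22 TPM in 7TGP-NEG and 7.57 and 7.84 TPM in 7TGP-POS. The share of mitochondrial counts was 0.957 and 1.798% in 7TGP-NEG and 1.45 and 2.28% in 7TGP-POS, so the groups overlapped.

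Of 15414 genes tested, 1185 were differentially expressed genes (DEGs), called at an adjusted p under 0.05 together with a log2 fold change of 1 or more in either direction, which is 7.69% of the genes tested. In 7TGP-POS, 765 DEGs were higher (4.96%) and 420 were lower (2.72%). Counts of DEGs in the gene lists below are to be read against these shares. All adjusted p-values given here come from the quasi-likelihood test of edgeR, adjusted by Benjamini-Hochberg over all genes tested, and levels are CPM, counts scaled to the library total, unless TPM is named. The median log2 fold change over all genes tested was 0.00. No DEG had overlapping CPM between the groups, and 339 higher and 143 lower DEGs changed by at least 2 on the log2 scale.

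**Figure D1:**
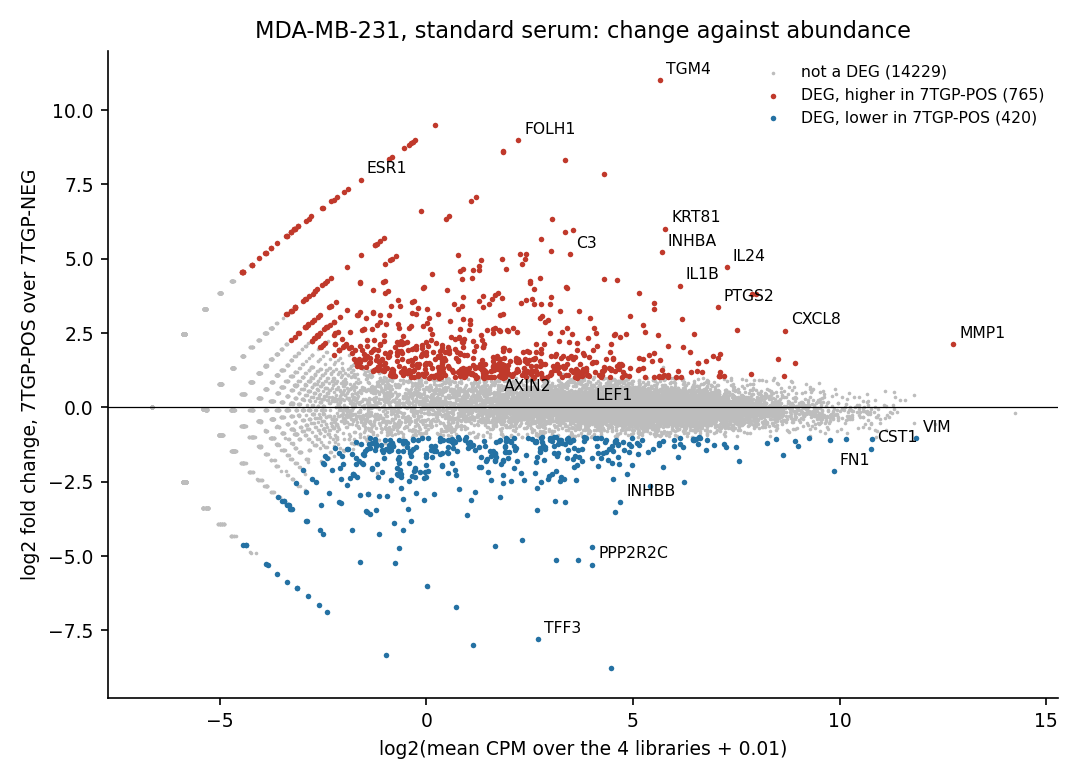
Each point is a gene, with the log2 of its mean CPM over the 4 libraries (plus 0.01) on the horizontal axis and its log2 fold change, 7TGP-POS over 7TGP-NEG, on the vertical axis. The 765 higher DEGs are red, the 420 lower DEGs blue and all other genes grey. TGM4 stands at the top with a fitted value of 11.01 that depends on 3 counts in 7TGP-NEG, MMP1 at the far right among the higher genes, and the Wnt targets AXIN2 and LEF1 lie inside the grey band.

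Secreted inflammatory factors rose in 7TGP-POS. Of 18 chemokines tested, 11 were higher and none was lower, and the list's median log2 fold change was 1.66 (1.64 when genes at 3 counts or fewer in every library of a group were set to their bound). Of 23 interleukins and colony-stimulating factors, 12 were higher and none was lower, with a median of 1.51 (1.08 at the bounds). These lists were chosen with earlier results of these data known, so the counts are a description and are to be read against the 4.96% of all genes that were higher.

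CXCL8, the main neutrophil-attracting chemokine that signals through CXCR1 and CXCR2, stood at 113 and 114 CPM in 7TGP-NEG and 722 and 692 CPM in 7TGP-POS (log2 fold change 2.58, SE 0.08, adjusted p = 1.5e-14). Its relative CXCL1 stood at 15.3 and 16.5 CPM in 7TGP-NEG and at 126 and 134 CPM in 7TGP-POS, a log2 fold change of 2.98. CXCL2 rose from 10.9 and 10.6 to 33.3 and 36.8 CPM, and CXCL3 from 4.88 and 5.28 to 18.7 and 21.2 CPM. In each of these 4 genes the duplicates lay close together and far from the other group. CXCL5 rose too but was scarce, with 11 and 8 counts in 7TGP-POS and 2 in each 7TGP-NEG library. CXCL1, CXCL2 and CXCL3 are close paralogs, so counts can be split between them. CCL2, which attracts monocytes, went from 0.0552 and 0.126 CPM to 2.04 and 2.15 CPM (log2 fold change 4.47, SE 0.32). CCL20, CX3CL1, CXCL10, CXCL11 and PF4 were the other chemokines that rose, all below 4 CPM in every library. Of the 7 that did not pass, CCL28 stood at 3.51 to 3.99 CPM in the 4 libraries and the others below 0.6 CPM. Of the 23 genes called in both lists, CXCL5, CXCL11, GDF15, IL23A, IL33 and LTB lost the call when a single library was left out, with log2 fold changes of 0.88 to 2.18 in those fits, and the other 17 did not.

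Several of the CXC chemokine genes that rose lie near each other on chromosome 4. Among them in GRCh37 are CXCL8 at 74606236 to 74609433, CXCL1 at 74735110 to 74737025, CXCL3 at 74902306 to 74904524 and CXCL2 at 74962757 to 74964913. CXCL5 lies between CXCL1 and CXCL3, by the GRCh38 positions printed below. NF-κB, a factor that drives many inflammatory genes, binds a consensus motif of 10 bases. RefSeq promoters (GRCh38.p14, a different build from that of the counts) were searched on both strands over the 250 bases before each gene's start. Of the 23 chemokines, interleukins and colony-stimulating factors that were higher, 19 had a promoter in the table, and 13 of these (68.4%) held the motif. It was held by 1457 of the 12293 promoters of genes tested (11.9%), by 14.7% of those of higher DEGs and by 12.1% of those of lower DEGs. Among the chemokines and interleukins that were not DEGs, 1 of 10 promoters held it. CXCL1, CXCL2 and CXCL3 are paralogs counted singly among the 13. Their stretches printed below matched each other at 71.1 to 92.2% of bases, so these hits are not independent of each other. The sequences of 6 carriers are printed here to give the shared element in its context, written 5′ to 3′ on the gene's strand, with capitals for the bases matched by the motif on either strand.
CXCL1, chr4:73869274-73869363, plus strand: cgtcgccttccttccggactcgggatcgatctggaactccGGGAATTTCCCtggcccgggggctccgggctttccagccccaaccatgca
CXCL2, chr4:74099224-74099313, minus strand: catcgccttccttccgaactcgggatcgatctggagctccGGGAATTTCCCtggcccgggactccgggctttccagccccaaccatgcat
CXCL3, chr4:74038719-74038808, minus strand: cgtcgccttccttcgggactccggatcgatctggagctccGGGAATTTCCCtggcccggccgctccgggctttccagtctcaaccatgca
CXCL5, chr4:73998719-73998808, minus strand: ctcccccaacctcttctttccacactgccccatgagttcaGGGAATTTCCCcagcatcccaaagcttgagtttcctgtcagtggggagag
CXCL10, chr4:76023570-76023659, minus strand: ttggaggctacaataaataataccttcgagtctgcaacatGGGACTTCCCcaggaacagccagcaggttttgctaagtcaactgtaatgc
IL6, chr7:22727087-22727176, plus strand: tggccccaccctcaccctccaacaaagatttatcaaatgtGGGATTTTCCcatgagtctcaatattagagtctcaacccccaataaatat

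CXCL1, CXCL2, CXCL3 and CXCL5 carried the same 11 bases, starting 79 bases before the start in CXCL1 and CXCL3, 78 in CXCL2 and 91 in CXCL5. The AP-1 motif TGANTCA, a palindrome read the same on both strands, was in 4.34% of all these promoters, 8.35% of those of higher DEGs and 5.41% of those of lower DEGs. Among chemokines, interleukins and colony-stimulating factors it was in 4 of 19 promoters of those called higher (21.1%) and in 4 of 10 of those that were not DEGs. Aligned without gaps, the stretches of CXCL1 and CXCL3 matched at 83 of 90 bases, and those of CXCL1 and CXCL5 at 37 of 90. The TCF/LEF heptamer ATCAAAG (either strand) was in 162 of the 12293 promoters of genes tested (1.32%), in 1.24% of those of higher DEGs and in 0.955% of those of lower DEGs. CXCL8 was the 1 gene among the 19 that held it, and its promoter is shown because it also held the AP-1 motif, with capitals for both.
CXCL8, chr4:73740360-73740453, plus strand: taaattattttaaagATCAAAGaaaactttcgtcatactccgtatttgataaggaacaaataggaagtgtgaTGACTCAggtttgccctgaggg
A match is a description of the letters and not of binding, which was not measured.

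Among the interleukins, IL24, a member of the IL-10 family, changed most, from 11.9 and 9.96 CPM in 7TGP-NEG to 304 and 289 CPM in 7TGP-POS (log2 fold change 4.71, SE 0.10, adjusted p = 6.5e-16). The IL-1 ligands followed, IL1B from 6.98 and 7.98 to 140 and 125 CPM and IL1A from 7.37 and 6.79 to 83.4 and 83.3 CPM. IL6, the ligand of the gp130 pathway, rose from 6.18 and 6.41 to 55.6 and 54.2 CPM. CSF3 and CSF2, the growth factors of granulocytes and of granulocytes and macrophages, rose by 2.45 and 1.87 on the log2 scale. IL12A, IL33, IL32, LTB, IL23A and GDF15 rose by 1.06 to 1.85. LIF and IL11, also gp130 ligands, were abundant in both groups and stayed under the fold threshold, at log2 fold changes of 0.59 and 0.95. CSF1, the macrophage growth factor, stood at 600 and 577 CPM in 7TGP-NEG and 639 and 605 CPM in 7TGP-POS, a difference that did not pass the test. TNF had at most 5 counts in a library.

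**Figure D2:**
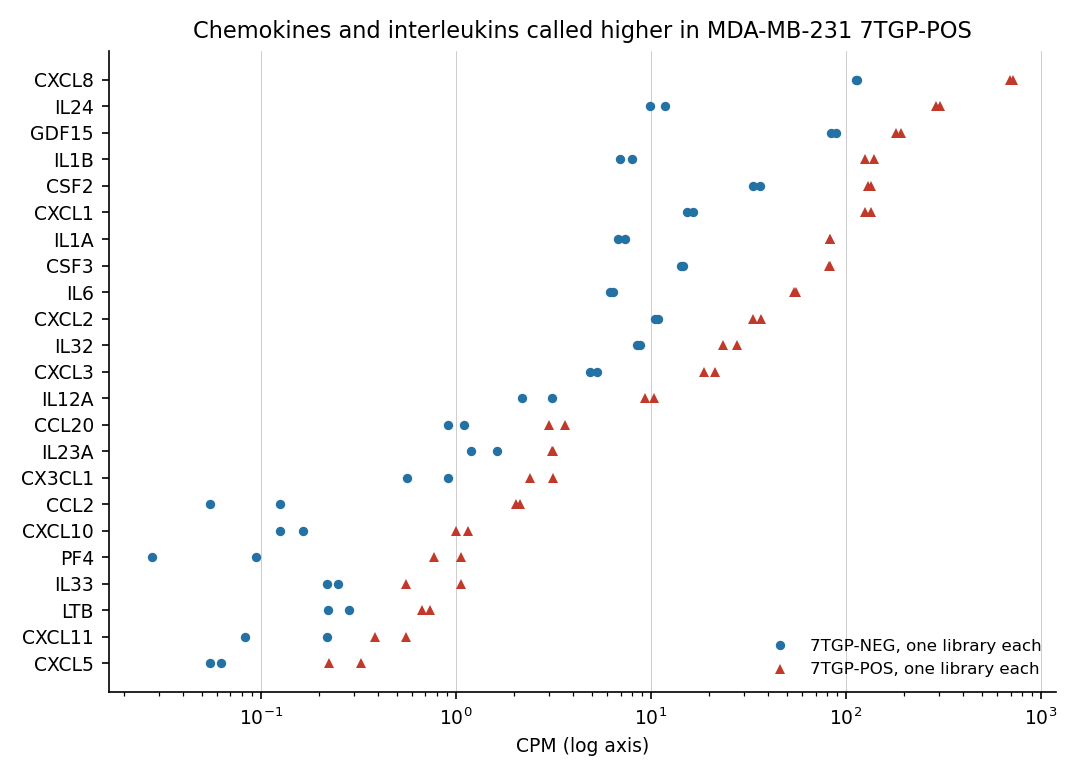
CPM on a log axis of the 23 chemokines, interleukins and colony-stimulating factors called higher in 7TGP-POS, 1 row a gene, with circles for the 2 7TGP-NEG libraries and triangles for the 2 7TGP-POS libraries. In every row both triangles lie to the right of both circles, from CXCL8 at 692 and 722 CPM at the top to CXCL5 at 0.223 and 0.326 CPM at the bottom.

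Receptors for these factors moved in both directions. Of 28 cytokine receptors, 11 were higher and 4 lower, beside 4.96% and 2.72% of all genes, with a median of 0.19. IL1RL1, the receptor for IL-33, stood at 1.19 and 1.35 CPM in 7TGP-NEG and 14.5 and 14.7 CPM in 7TGP-POS. IL1RL2, IL18R1 and IL1R1, of the same receptor family on chromosome 2, rose by 2.59, 1.85 and 1.24. IL13RA2, IL2RG and IL2RB rose from under 0.4 CPM to between 0.781 and 1.99 CPM. TNFRSF11B, which encodes osteoprotegerin, and TNFRSF11A, which encodes RANK, rose by 1.62 and 1.26. IL7R fell from 10.3 and 9.80 to 2.49 and 2.01 CPM, and NGFR, IFNLR1 and CXCR4 fell by 2.35, 1.79 and 1.09. The annotated IL1RL1 and IL18R1 genes overlap on the same strand, so reads may be shared between them.

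Of 19 NF-κB subunits and feedback genes, 3 passed both thresholds, all higher: LCN2, BIRC3 and TNFAIP3. BIRC3, an inhibitor of apoptosis, stood at 59.7 and 60.7 CPM in 7TGP-NEG and 206 and 227 CPM in 7TGP-POS, and TNFAIP3, which encodes the feedback inhibitor A20, at 18.3 and 17.4 against 56.7 and 59.0 CPM. A further 10 genes of the list were higher with an adjusted p under 0.05 and a log2 fold change under 1, among them ICAM1 (0.82), TRAF1 (0.87), NFKBIA (0.59) and NFKB2 (0.54). RELA, with a log2 fold change of -0.18, did not pass. TLR2 and TLR3, receptors of bacterial lipoproteins and double-stranded RNA, were the 2 of 15 Toll-like receptor pathway genes that rose, by 2.05 and 1.90.

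Of 34 interferon-stimulated genes tested, 4 were higher DEGs (IFI44L, EPSTI1, MX2 and XAF1) and none was a lower DEG, with 16 higher and 6 lower by adjusted p alone and a median of 0.25. IFI44L stood at 0.828 and 1.07 CPM in 7TGP-NEG and 3.68 and 4.91 CPM in 7TGP-POS, whereas ISG15 and IFIT1 had log2 fold changes of 0.09 and -0.13 that did not pass. None of 14 MHC class I presentation genes was a DEG, beside 7.69% of all genes (6 higher and 2 lower by adjusted p alone, median 0.28). Of 14 immune checkpoint and evasion genes, TNFRSF14 and IDO1 rose, with a median of 0.09 (-0.08 at the bounds). By adjusted p alone, 5 of them were higher and 3 lower.

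Complement genes also included large changes. Of 17 complement genes, 7 were higher and 1 was lower, with a median of 0.70 (0.55 at the bounds). C3, the central component, stood at 0.497 and 0.691 CPM in 7TGP-NEG and 21.5 and 22.0 CPM in 7TGP-POS (log2 fold change 5.14, SE 0.14). SERPING1, the inhibitor of C1, rose from 0.193 and 0.220 to 7.26 and 6.58 CPM. CD59, the membrane inhibitor of the lytic complex, fell from 646 and 665 to 313 and 307 CPM. Of 16 prostaglandin genes, 4 were higher, 1 was lower and 11 were not DEGs, with a median of 0.41 (0.04 at the bounds). PTGS2, the inducible cyclooxygenase, stood at 22.95 and 22.3 CPM against 245 and 240 CPM (log2 fold change 3.37, SE 0.08), and PLA2G4A, which releases its substrate arachidonic acid, at 7.09 and 6.82 against 40.4 and 38.4 CPM. TBXAS1, thromboxane synthase, fell by 1.38.

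Components of the Wnt pathway changed in both directions. Of 17 feedback and other direct targets tested, 3 were higher and 1 was lower, with a median log2 fold change of 0.00, beside 4.96% of all genes higher and 2.72% lower. RNF43, which removes Frizzled receptors from the surface, stood at 3.09 and 4.05 CPM in 7TGP-NEG and 7.91 and 8.002 CPM in 7TGP-POS (log2 fold change 1.11, SE 0.19). TNFRSF19 rose by 1.08 and LGR6, an R-spondin receptor, by 1.26 (adjusted p = 0.045), while KREMEN1, a receptor of DKK1, fell by 1.04. The LGR6 call was lost in 8 of the 14 alternatives run, with 0.88 when 7TGP-NEG replicate 2 was left out. AXIN2, the target most often used as a readout, stood at 3.06 and 2.61 CPM against 4.001 and 3.43 CPM, a log2 fold change of 0.33 with an adjusted p of 0.21. LGR5, SP5, ZNRF3, LEF1 and TCF7 did not pass either, with log2 fold changes between -0.33 and 0.09. NKD2 and APCDD1 had 0 counts in all 4 libraries. CCND1 and DKK1 were lower by adjusted p alone, at log2 fold changes of -0.72 and -0.34. Of 15 ligands and secretion genes, 1 was higher and 2 were lower. WNT5A, a ligand mostly known for signalling without β-catenin, rose by 1.01 at 0.440 to 1.199 CPM, and WNT11 and WNT9A fell by 2.30 and 1.39. The WNT5A call was lost in 7 of the 14 alternatives, with 0.79 when 7TGP-POS replicate 2 was left out. Of 16 receptors, FZD1 fell from 34.2 and 31.9 to 13.2 and 11.8 CPM and FZD3 by 1.56, and none was higher past both thresholds. ROR1 and FZD4 were higher by adjusted p alone, at 0.89 and 0.58. CTNNB1, which encodes β-catenin, stood at 350 and 341 CPM against 392.4 and 366 CPM and did not pass (log2 fold change 0.08). TCF7L1, a TCF that mostly represses, had 21 and 23 counts against 3 and 3 (at least 7.55-fold lower) and the corepressor TLE2 fell from 6.01 and 5.12 to 2.07 and 2.01 CPM, out of 21 genes of β-catenin and its partners. Of the secreted antagonists and R-spondins, 13 were tested, DKK3 rose by 1.32 and SFRP1 fell by 1.39. The eGFP transcript of the reporter was not analysed here.

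**Figure D3:**
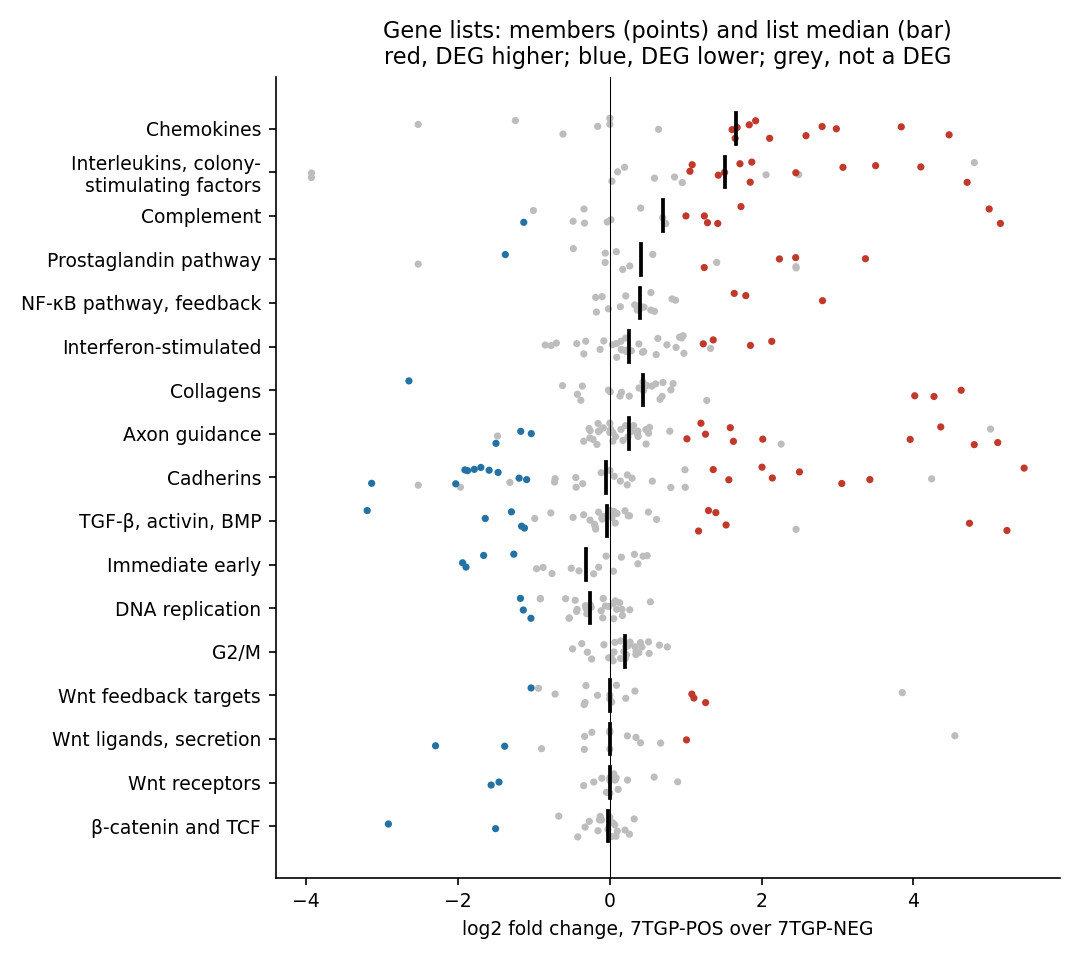
Log2 fold changes, 7TGP-POS over 7TGP-NEG, of the members of 17 gene lists (points) with the list median (black bar), red for higher DEGs, blue for lower DEGs and grey for other genes. The medians of chemokines (1.66) and interleukins (1.51) lie to the right of all others, and those of the 4 Wnt lists drawn lie between -0.02 and 0.00.

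The activin genes of the TGF-β superfamily changed in opposite directions. INHBA, which encodes the subunit of activin A, stood at 2.68 and 2.48 CPM in 7TGP-NEG and 100.4 and 101 CPM in 7TGP-POS (log2 fold change 5.23, SE 0.12, adjusted p = 7.6e-16). INHBB, which encodes the subunit of activin B, stood at 46.9 and 45.6 CPM against 5.48 and 4.99 CPM (log2 fold change -3.20, SE 0.11). Of 36 genes of the superfamily, 6 were higher and 5 lower, beside 4.96% and 2.72% of all genes, with a median of -0.04. NOG, an extracellular BMP inhibitor, rose by 1.30, and the BMP target ID1 fell by 1.12 while ID4 rose by 1.17. CHRDL1, another secreted BMP inhibitor, fell from 24.8 and 24.6 to 0.682 and 0.781 CPM. In the Notch list, NOTCH4 was the 1 DEG of 19, beside 7.69% of all genes, at 0.552 and 0.534 CPM against 10.2 and 11.5 CPM.

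The 10 genes with the largest increases among DEGs with at least 10 counts in every library were KRT81, LRMDA, SLITRK6, INHBA, C3, HSD11B1, IL24, SEMA3E, ADGRL3 and COL4A5, at log2 fold changes of 4.27 to 6.01. KRT81, a hair keratin that breast cancer lines can express, stood at 1.85 and 1.35 CPM against 107 and 109 CPM (SE 0.13, adjusted p = 1.7e-15). The annotated span of KRT86, which rose by 1.57, includes KRT81 on the opposite strand, and the strand setting of the counting was not given in the sources used here, so their reads may be shared. HSD11B1, which turns cortisone into cortisol, stood at 0.276 and 0.377 CPM against 10.6 and 8.62 CPM. The 10 largest decreases were PPP2R2C, NUP210, CHRDL1, ALDOC, SORL1, SCNN1A, PALM, INHBB, NOX5 and PCDH1, at -3.14 to -5.29. PPP2R2C, a regulatory subunit of protein phosphatase 2A, fell from 31.0 and 32.1 to 0.682 and 0.976 CPM, and SCNN1A, a subunit of the epithelial sodium channel, from 43.2 and 44.2 to 3.08 and 4.80 CPM. PALM had the widest error of the 20, with an SE of 0.41.

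Some genes were close to absent in either group. In 139 higher DEGs both 7TGP-NEG libraries had at most 3 counts, and in 57 lower DEGs both 7TGP-POS libraries did. TGM4, a transglutaminase known from prostate, had 2 and 1 counts in 7TGP-NEG and 3399 and 3611 counts in 7TGP-POS, which is at least 1138-fold higher against a floor of 3 counts per library. FOLH1, which encodes prostate-specific membrane antigen, had 0 and 1 counts against 308 and 340 counts and was at least 105-fold higher. ANKRD30A, a breast differentiation antigen, and NCKAP5 were at least 82.0-fold and 81.1-fold higher, and MAGEB2, of the cancer-testis antigens that are normally limited to germ cells, at least 51.3-fold higher. Chosen after their values were seen, MAGEA6, another cancer-testis antigen, had 6 and 5 counts against 1366 and 1358 counts, and GABRA3, a GABA receptor subunit, 4 and 0 counts against 758 and 668 counts. Members of the MAGEA family are near-identical, so the counts of MAGEA6 may include reads of its neighbours.

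Some luminal genes were among those near absence in either group. ESR1, the estrogen receptor, had 0 counts in both 7TGP-NEG libraries and 20 and 25 counts in 7TGP-POS, and FOXA1, a pioneer factor for this receptor, had 2 and 0 counts against 24 and 43 counts. At these levels ESR1 and FOXA1 remained under 1.3 CPM. Of the 10 luminal markers, 2 rose, FOXA1 among them, and TFF1 fell. KRT8, KRT18 and KRT19 were lower by adjusted p alone, at log2 fold changes of -0.75, -0.41 and -0.22, and GATA3, EPCAM, ELF3 and CDH1 did not pass. The summed level of the luminal list was 1709 and 1841 TPM in 7TGP-NEG and 1390 and 1473 TPM in 7TGP-POS. TP63, a basal marker, rose from 0.414 and 0.597 to 6.88 and 6.41 CPM, while KRT5 had 0 counts in all 4 libraries and KRT14 and KRT17 at most 7 counts. OXTR, the oxytocin receptor of myoepithelial cells, had 396 and 327 counts against 186 and 185.

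The trefoil factors, small secreted mucosal peptides, fell together. TFF3 had 453 and 424 counts in 7TGP-NEG and 1 and 3 in 7TGP-POS, at least 150-fold lower, and TFF1 had 71 and 64 counts against 2 and 0, at least 23.005-fold lower. TFF2, chosen after its values were seen, had 1538 and 1451 counts against 6 and 1 counts (log2 fold change -8.78, SE 0.25). The 3 genes are neighbours on chromosome 21 (GRCh37), from the start of TFF3 at 43731777 to the end of TFF1 at 43786644. RIPK4, another gene of chromosome 21, stood at 13.5 and 14.2 CPM against 12.5 and 12.3 CPM and did not pass. PPP4R3C, NDP and SORCS2, which completed the 5 genes of this kind with the highest CPM in 7TGP-NEG, were at least 50.4-fold, 37.9-fold and 14.5-fold lower.

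Among the DEGs with the highest CPM, MMP1, the interstitial collagenase, stood at 2532 and 2460 CPM in 7TGP-NEG and 11712 and 10887 CPM in 7TGP-POS (log2 fold change 2.13, SE 0.09, adjusted p = 2.2e-12). CXCL8, MAGED2 and PTX3, a secreted pattern-recognition protein, were further higher DEGs of this kind, at log2 fold changes of 1.05 to 2.58. VIM, CST1, RPS6 and FN1 were among the 5 lower DEGs with the highest CPM. FN1, fibronectin, fell from 1615 and 1385 to 367 and 342 CPM (log2 fold change -2.14, SE 0.10). VIM, the intermediate filament of mesenchymal cells, fell from 5044 and 4766 to 2512 and 2466 CPM, a log2 fold change of -1.03 just past the threshold. Leaving out 7TGP-NEG replicate 1 took VIM to -0.98, and leaving out 7TGP-POS replicate 2 took VIM to -0.9997 and RPS6 to -0.99, so these calls rest on where the threshold lies. MAGED2 went to 0.98 without 7TGP-POS replicate 1. CST1, a secreted cysteine protease inhibitor, fell from 2510 and 2453 to 1019 and 947 CPM, and its neighbours on chromosome 20, CST2, CST3 and CST4, named after their values were seen, fell by 2.00, 1.02 and 1.10. On the per-length scale the mean level of CST1 was 10691 TPM in 7TGP-NEG, above that of MMP1 at 4759 TPM, and 4192 TPM in 7TGP-POS, below that of MMP1 at 21330 TPM. Cystatins of this cluster are close paralogs, so counts may be split between them.

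Matrix genes were remodelled gene by gene. Of 25 collagens, COL11A1, COL4A5 and COL4A6 were higher and COL6A3 was lower, with a median of 0.44. COL4A5 and COL4A6, basement membrane collagens that lie head to head on chromosome X (GRCh37 107398837 to 107940775), stood at 2.21 and 2.42 against 43.98 and 48.7 CPM and at 1.08 and 1.29 against 17.2 and 22.4 CPM. COL6A3 fell from 78.0 and 66.9 to 12.1 and 11.9 CPM. Of 29 matrix glycoproteins, 6 were higher and 3 lower, with IGFBP5 rising from 0.166 and 0.157 to 3.65 and 3.23 CPM and LAMB1 falling by 1.07. Of 28 matrix proteases and inhibitors, 7 were higher and 2 lower. CTSS, a lysosomal and secreted cysteine protease, rose from 4.41 and 4.27 to 30.3 and 27.4 CPM, MMP9 from 0.193 and 0 to 2.02 and 1.62 CPM, and the protease CTSL and the inhibitor TIMP1 fell by 1.24 and 1.06. Of 18 integrins, ITGA11 rose, and ITGB4, the partner of the laminin receptor α6, fell from 604 and 578 to 205 and 197 CPM, with ITGB3 lower by 1.39. Of 18 keratins, KRT81 and KRT86 were higher DEGs and none was a lower DEG, with 4 lower by adjusted p alone, and of 14 S100 genes, S100P fell from 13.1 and 13.5 to 6.16 and 5.99 CPM. Of 17 serpins, SERPING1 and SERPINB2 rose and SERPINA1 and SERPINF1 fell. The calls in each of these lists stand beside 4.96% of all genes higher and 2.72% lower.

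The hand-written lists for the epithelial to mesenchymal transition were short, and no set test was run on them. Median log2 fold changes were -0.07 for transition factors, -0.13 for epithelial genes and 0.20 for mesenchymal genes (0.00, -0.13 and 0.00 at the bounds). By a ranked test over all detected genes, the paper reports a Hallmark set of this transition as enriched in the reporter-positive cells in both sera. The lists here do not test that result. Of 18 transition factors, TCF4 (4.05) and PRRX1 (1.45) rose and SNAI3 (10 and 5 counts against 2 and 0), GRHL1 (-2.15) and ESRP1 (-1.08) fell, where GRHL1 and ESRP1 act on the epithelial side. ZEB1 stood at 111 and 107 CPM against 104 and 101 CPM and did not pass. Of 14 epithelial genes, CLDN1, a tight junction protein, rose from 10.1 and 8.86 to 66.7 and 67.0 CPM and none fell past both thresholds. CDH1, E-cadherin, had at most 6 counts in a library. Of 17 mesenchymal genes, SPARC rose and FN1 and VIM fell. Of 17 stem cell markers, NES and ALDH1A2 were lower DEGs and none was a higher DEG, with 3 higher and 6 lower by adjusted p alone.

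Cell-cell adhesion and guidance genes split in direction. Of 38 cadherins and protocadherins, 8 were higher and 10 lower, beside 4.96% and 2.72% of all genes. PCDH7, CDH13 and CDH10 rose by 2.14, 2.50 and 3.43, and PCDH1 fell from 15.04 and 15.7 to 1.84 and 1.78 CPM. In the protocadherin β cluster on chromosome 5, PCDHB2, PCDHB8, PCDHB9, PCDHB10, PCDHB11, PCDHB12 and PCDHB13 fell by 1.195 to 1.91 and PCDHB6 rose by 1.36. These genes are close paralogs, so their counts are uncertain where reads were shared. Of 48 axon guidance genes, 10 were higher and 3 lower, beside the same shares of all genes, with a median of 0.26. SEMA3E rose by 4.36, SLIT2, a ligand of ROBO receptors, from 31.9 and 25.4 to 122 and 119 CPM, and EPHB6 and EFNB3 by 3.96 and 1.59. PLXNA2, a semaphorin receptor, fell from 62.3 and 58.6 to 22.1 and 22.3 CPM.

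Of 18 immediate early genes, FOS, FOSB, EGR2 and NR4A3 were lower DEGs, beside 2.72% of all genes, and none was a higher DEG. By adjusted p alone 1 was higher and 10 were lower, with a median of -0.31. FOS stood at 50.2 and 48.4 CPM in 7TGP-NEG and 11.6 and 15.03 CPM in 7TGP-POS. Of 31 DNA replication genes, E2F1, E2F8 and MCM3 were lower and 15 were lower by adjusted p alone, with a median of -0.26. Of 30 G2/M genes none was a DEG, with 11 higher and 3 lower by adjusted p alone and a median of 0.21. CCND2, a G1 cyclin, rose from 4.19 and 4.62 to 61.5 and 70.2 CPM, the 1 DEG of 20 G1 genes, while CCND1 stood at 762 and 765 against 477 and 485 CPM. BCL2A1, a short-lived survival factor, rose by 3.47, the 1 DEG of 16 BCL2 family genes. In glycolysis and hypoxia, ALDOC (-4.70) and EGLN3 (-3.82) fell out of 28, and ALDH1L1, of folate metabolism, rose by 1.75 out of 20. No DEG was found among 25 cholesterol synthesis genes (median -0.14), 38 ribosome biogenesis genes (-0.11), 20 MAPK feedback genes (-0.07), 15 YAP and CCN genes (-0.14) or 9 ABC transporter genes (0.19). With 7.69% of all genes called, lists this short could hold few or no DEGs. By adjusted p alone, 5 of the cholesterol genes were higher and 10 lower. Of 28 EGF, FGF, VEGF and PDGF family genes, EREG, FGF1 and EGF rose by 1.02 to 1.14 and PDGFB fell by 1.30. Of the 10 receptor tyrosine kinases that the study singled out over both lines, none was a DEG in MDA-MB-231, beside 7.69% of all genes, and all 10 were DEGs in MDA-MB-436 (6 higher and 4 lower). The study drew them from the DEGs of either line in these samples. With none called in MDA-MB-231, the calls in MDA-MB-436 were therefore largely fixed in advance. AXL stood at 1514 and 1468 CPM against 1426 and 1340 CPM, and FLT1 came nearest, at 1.35 and 1.79 against 2.76 and 3.15 CPM (log2 fold change 0.86, adjusted p = 0.0051). ALK had 0 counts in all 4 libraries, and RET, FLT4 and NTRK2 had at most 2 counts in each.

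Some further calls of genes named above rested on a single library. Without 7TGP-NEG replicate 1, RNF43 and TNFRSF19 went to 0.93 and 0.88, LAMB1 to -0.97 and MCM3 to -0.9996. Without 7TGP-NEG replicate 2, KREMEN1 went to -0.79, SFRP1 to -0.99, FGF1 to 0.59, ESRP1 to -1.04 and NR4A3 to -1.07. Without 7TGP-POS replicate 1, KREMEN1 went to -0.77, SFRP1 to -0.98, ID1 to -0.99, EGF to 0.97, FGF1 to 0.89, E2F8 to -0.90 and EGR2 to -1.34. Without 7TGP-POS replicate 2, CXCR4 and TIMP1 went to -0.996 and -0.97, MCM3 to -0.99, ESRP1 to -0.91, NR4A3 to -1.201 and FGF1 to 1.24. MX2 and SERPINF1 lost the call in 3 of these 4 fits, SNAI3 in 2 and ALDH1A2 in all 4, each at under 0.7 CPM in every library, and all of the genes of this paragraph kept their sign.

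Changes were not spread evenly along the genome. Genes whose mean level reached 1 CPM were grouped by position into 224 windows of 50 neighbours, and the median log2 fold change was above 0.3 in 9 windows and below -0.3 in 19. The 4 windows of chromosome X between 56590060 and 152953381 (GRCh37) had medians of 0.65 to 0.92, with 46 to 48 of their 50 genes above 0, and the other 3 windows of that chromosome did not reach 0.3. On chromosome 9, 7 of 9 windows were below -0.3, and 70 of its 477 genes were above 0 (14.7%). On chromosome 20, 4 of 6 windows were below -0.3. The lowest window, on chromosome 6 between 39867354 and 44094651, had a median of -0.64, and 2 windows of chromosome 15 had -0.44 and -0.56. A window of chromosome 17 between 16245848 and 26655351 reached 0.54. Several named genes lie in such windows: COL4A5 and COL4A6 in one with a median of 0.65, MAGEA6 and GABRA3 in one with 0.69, NOX5 in one with -0.56 and MCM3 in one with -0.36. Of the higher DEGs, 102 were on chromosome X (13.3%), where 3.63% of the genes tested lie. Subtracting the window's median, a step added after the data were seen, left 563 of 697 DEGs in windows (80.8%) past a log2 change of 1, and on chromosome X 32 of 73. The part of gene dosage in these regional shifts was not tested.

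**Figure D4:**
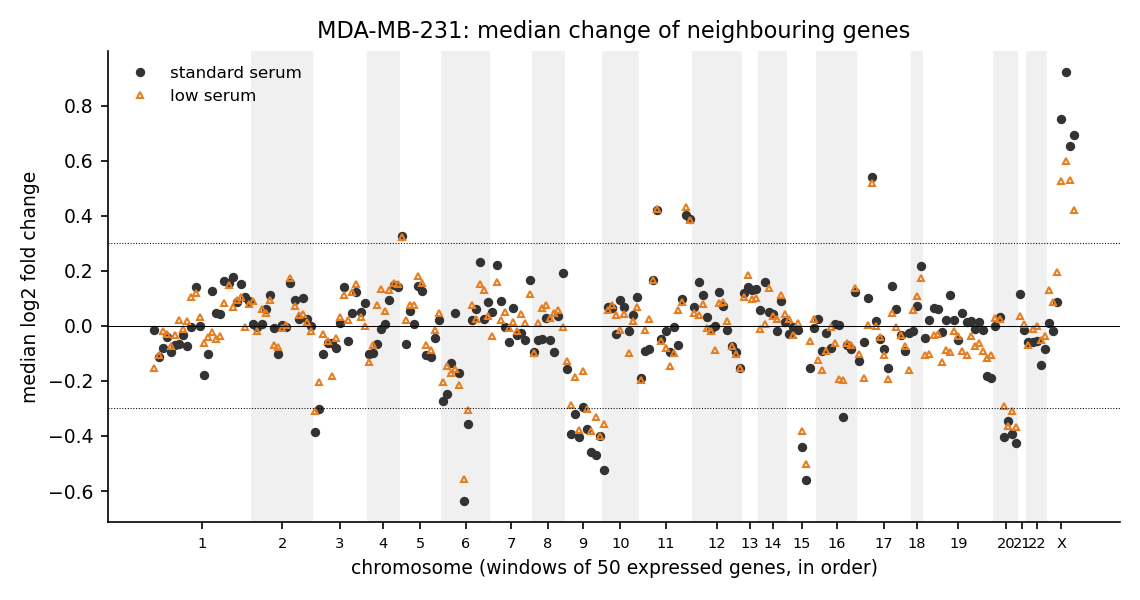
Median log2 fold change of each of 224 windows of 50 neighbouring genes, in order along chromosomes 1 to 22 and X, with filled circles for standard serum and open triangles for low serum. Dotted lines mark 0.3 and -0.3, and the X windows at 0.65 to 0.92 and the 7 chromosome 9 windows at -0.32 to -0.47 stand out in standard serum. In low serum the medians of these X windows were 0.42 to 0.60, and those of these chromosome 9 windows were below 0.

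The same sorted populations were also grown in low serum and sequenced as 4 further libraries, which were fitted in a separate model. The study's methods describe another library kit and sequencer for those libraries, so serum and library preparation cannot be told apart. In low serum 948 of 16069 genes tested were DEGs (5.9%). Of the 1173 standard serum DEGs that were tested there, 1084 (92.4%) had the same sign. DEGs of the same direction in both numbered 564, which is 47.6% of the standard serum DEGs and 59.5% of the low serum DEGs. The higher DEGs had a median log2 fold change of 1.84 in standard and 1.09 in low serum, and the lower DEGs -1.55 and -0.98. These DEGs were selected on their standard serum values, so the medians do not compare the size of the change between the sera. Of the chemokines and interleukins, 20 of the 23 that rose in standard serum were also higher DEGs in low serum, with CXCL8 at 3.71 and IL1B at 4.05. All 28 windows beyond 0.3 in either direction had a median of the same sign in low serum. FN1 had a log2 fold change of -0.03 in low serum and FOS one of 0.17, against -2.14 and -1.94 in standard serum, and LGR6 had 3.87 against 1.26. The DNA replication list had a median of 0.20 in low serum, with 23 of 31 genes above 0 and no DEG, against -0.26 in standard serum. Whether these changes differ between the sera was not tested.

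**Figure D5:**
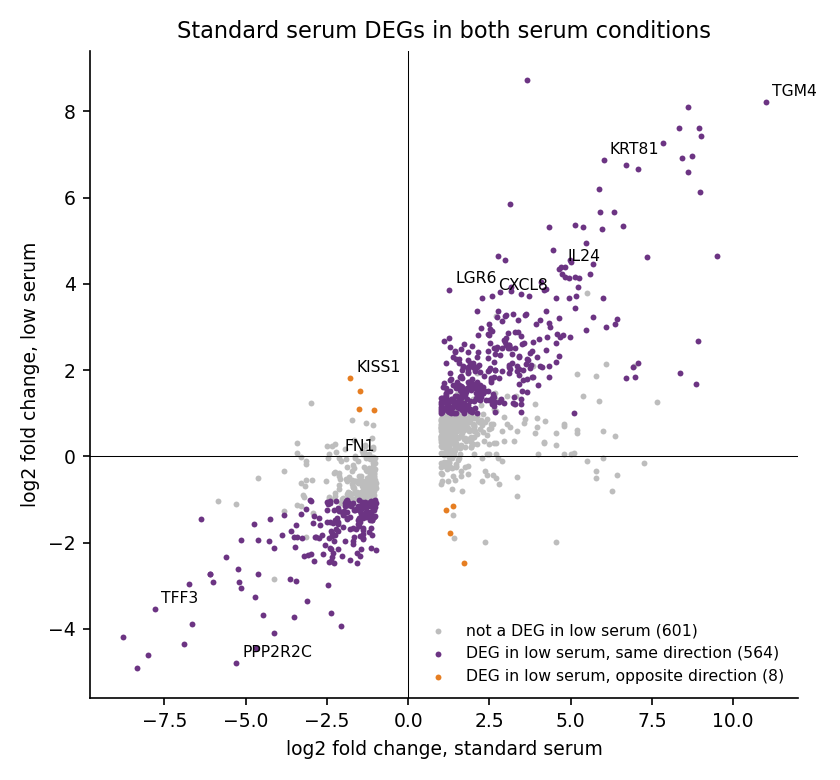
Log2 fold changes, 7TGP-POS over 7TGP-NEG, of the 1173 standard serum DEGs tested in both conditions, with standard serum on the horizontal and low serum on the vertical axis. The 564 purple points are DEGs in both with the same direction, the 8 orange points, KISS1 among them, are DEGs in both with opposite directions, and the 601 grey points are not DEGs in low serum.

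In MDA-MB-436, the other mesenchymal line, sorted in the same way and sequenced alongside, 1932 of the 15414 genes tested were DEGs (12.5%). DEGs shared with MDA-MB-231 numbered 320, which is 27.0% of the MDA-MB-231 list and 16.6% of the MDA-MB-436 list. Of these, 173 had the same direction and 147 the opposite direction. A direct test of the difference between the lines, the interaction of line and reporter status, called 2132 genes (13.8%) at both thresholds. By an adjusted interaction p under 0.05 alone, 791 of the 1185 MDA-MB-231 DEGs passed, beside 6355 of all 15414 genes tested. For CXCL8 the lines were close, with log2 fold changes of 2.58 and 2.43 (difference 0.16, adjusted p = 0.24), and INHBA stood at 5.23 and 4.46. IL24 differed, at 4.71 in MDA-MB-231 and -1.21 in MDA-MB-436, a difference of 5.92 with an adjusted p of 4.4e-12. Over the interferon-stimulated list, 28 of 34 genes were lower DEGs in MDA-MB-436, where none was in MDA-MB-231.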

How the data were processed

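RNA-seq was read from 8 standard serum libraries (MDA-MB-231 and the other line, MDA-MB-436, in biological duplicate) and from 8 low serum libraries. Raw counts per gene on Gencode v19 (hg19/GRCh37) were deposited by the authors. TPM values, used for levels per length and 1 alternative, were deposited by the authors for the standard serum libraries, and the TPM of the low serum libraries were not used here. According to the methods, rRNA reads were removed and the rest aligned with STAR, whose version is 2.6.1a in the submitters' processing notes, which also name edgeR 3.22.5 and limma. The strand setting of the counting was not given in the sources used here.

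Groups came from the labels. Of 57820 gene rows, 55538 matched Gencode v44 lifted to GRCh37 and held 99.14% of the counts. Protein-coding genes with at least 10 counts in all over the 8 libraries of a serum were fitted with edgeR 4.0.16 (TMM scaling, quasi-likelihood test, R 4.3.3) in a model of 4 groups, and contrasts gave each comparison and the interaction of line and reporter status. DEGs had a Benjamini-Hochberg adjusted p under 0.05 together with a log2 fold change of 1 or more in either direction. P-values measure the spread between 2 cultures of 1 sorted population per group. That spread was estimated over all 4 groups of a serum together, so the MDA-MB-436 duplicates also enter the MDA-MB-231 p-values. Library totals of 31827130 to 36246783 put a floor of 3 counts at 0.0828 to 0.0943 CPM, which covers counting error only. Scripts were tested on simulated data.

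The genes named were the members of 44 hand-written lists and 7 marker lists, the 10 largest changes in each direction with at least 10 counts in every library, the 5 DEGs in each direction with the highest CPM, the 5 in each direction with the other group at 3 counts or fewer, the 5 genes with the smallest interaction p and opposite directions in the 2 lines, and the 10 receptor tyrosine kinases named by the study, which were chosen on these samples and are not independent evidence. Exceptions are marked in the text, and some genes of the rule and the lists are not reported here. The comparison, lists and rules were chosen with earlier results of these data known. Alternatives were DESeq2 1.42.0, its size factors, other filters, all biotypes, other thresholds, a replicate block, leaving out each library, limma 3.58.1 on log2(TPM + 1) and other window sizes. Subtraction of window medians and leaving out chromosome X were chosen after seeing the data. Promoter sequences are those of RefSeq (GRCh38.p14), matched by symbol.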

Additional observations from a re-analysis of the deposited data

Results flagged for a closer look

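The change between 7TGP-POS and 7TGP-NEG differed from MDA-MB-231 to the other line, MDA-MB-436, by the interaction test in edgeR for 2132 genes, of which 1082 had the higher value in MDA-MB-231. Of the genes with the smallest interaction p that were DEGs in opposite directions, SH3BGRL stood at 33.9 and 33.3 CPM in MDA-MB-231 7TGP-NEG and 70.3 and 72.3 CPM in 7TGP-POS, with a log2 fold change of 1.03 against -4.69 in MDA-MB-436 (difference 5.72). It lies on chromosome X in a window with a median of 0.92. PTGS2 had 3.37 against -1.12 (difference 4.49) and IFI44L 2.13 against -3.93 (difference 6.07). PMEPA1, a target and inhibitor of TGF-β signalling, went the other way, with 50.3 and 48.6 CPM against 20.8 and 21.7 CPM in MDA-MB-231 and log2 fold changes of -1.27 and 2.14 (difference -3.42).

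For 8 genes the change was a DEG in both sera with opposite signs, and this difference was not tested in a single model, since the libraries were prepared separately. KISS1, which encodes the kisspeptin precursor, stood at 30.02 and 34.1 CPM in 7TGP-NEG and 9.40 and 10.1 CPM in 7TGP-POS in standard serum (log2 fold change -1.77), against 1.82 in low serum. The other 7 were below 2.5 CPM in all 4 standard serum libraries. TSPAN2 had -1.04 and 1.08, PSG9 -1.48 and 1.51, and PIK3AP1 -1.52 and 1.09 in standard and low serum. CYP11A1 had 1.17 and -1.24, LAIR2 1.71 and -2.47, ANPEP 1.39 and -1.16, and ENSG00000271698 1.29 and -1.78.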

How the results depend on the processing

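The 1185 DEGs became 5084 with an adjusted p under 0.05 alone (51.0% of them higher, against 64.6%), 521 when the test was set against a log2 fold change of 1, and 522 with limma on log2(TPM + 1), a setting that changes test, unit and pseudocount together, so the cause was not tested. Leaving out each MDA-MB-231 library in turn gave 1006 to 1145, with the lowest count without 7TGP-POS replicate 2. DESeq2 gave 943, and 924 of the 1185 were DEGs in both tools. Size factors of DESeq2, other filters, the 4 MDA-MB-231 libraries alone, all biotypes and the omission of chromosome X gave between 1069 and 1626. The genes that differed between the lines numbered 2132, 6355 with adjusted p alone, 999 against a log2 difference of 1, and 1951 to 2113 without each library. Among the named or listed genes, no value changed sign past the threshold under any alternative run. Of the 209 DEGs named or listed, 106 were DEGs under every alternative, and of all 1185, 379 were. Windows of 30 or 100 genes put 13.2 and 11.3% beyond 0.3, against 12.5%.

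With the replicate number as a block, 1170 genes were DEGs in standard serum, 926 in low serum and 2158 differed between the lines. The deviations of same-numbered libraries correlated at 0.296 between the MDA-MB-231 groups and at -0.0349 to 0.193 in the other pairs of groups. The labels name no batch behind the numbers, and with 2 libraries per group these values do not settle whether the numbers pair the libraries. With 2 libraries per group the spread rests on few values, and under the floor of about 0.09 CPM a difference was not detectable at this depth.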
